A study of Homo sapiens with 6 samples.

Results

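Condensin and cohesin are the ring-shaped protein complexes that fold chromosomes and hold sister chromatids together, and 10 genes encoding their subunits were followed here. They were taken by symbol from the table of gene counts, in which all 10 occur among 58735 genes, and all 10 passed the filter on low counts. The cells were VCaP, a human prostate cancer cell line, stably infected with a short hairpin RNA (shRNA) that either targets NEDD9 (shNEDD9) or has no target (shNTC). Both groups grew in DMEM with 10% foetal bovine serum, and each held 3 libraries. The study asked which genes change when NEDD9, an adaptor protein with roles at focal adhesions and in mitosis, is silenced. The submitters call the replicates biological; the number of hairpins, and whether each replicate was infected separately, are not given in the sources used here.

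Condensin and cohesin are built on paired SMC proteins, long coiled coils with an ATPase head, which a kleisin subunit closes into a ring. SMC2 and SMC4 form the core of both condensins. Condensin I adds the kleisin NCAPH with NCAPD2 and NCAPG and reaches chromosomes after the nuclear envelope breaks down, whereas condensin II uses NCAPD3 and NCAPG2 and is nuclear throughout the cell cycle. SMC1A and SMC3 form the cohesin core, to which either STAG2 or its paralog STAG1 binds. Cohesin extrudes chromatin loops in interphase and ties sister chromatids from S phase to anaphase. STAG2 is mutated in several cancers, and the mitotic condensins follow cell proliferation.

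The 30 bases around short motifs in the promoters are shown because promoters of cell cycle genes often carry them. TTTGAA is the core of the cell cycle genes homology region, CCAAT is bound by NF-Y, and TTTCCCGC, TTTCGCGC, TTTGCCGC and TTTGGCGC are forms of the E2F site. Each was searched on both strands from 250 bases before to 50 bases after the RefSeq start sites (GRCh38.p14, 16 windows for the 10 genes). Capitals mark the match, the strand is that of the gene, and TTCAAA is TTTGAA on the opposite strand.
NCAPG (chr4:17810932-17810961, plus strand): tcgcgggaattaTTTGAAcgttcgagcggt
NCAPD2 (chr12:6493945-6493974, plus strand): cagccgttgagaTTTGAActcggtatttgt
NCAPD3 (chr11:134223953-134223982, minus strand): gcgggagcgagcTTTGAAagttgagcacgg
NCAPG2 (chr7:158704755-158704784, minus strand): gcgccggcgggtgcgTTTGAAtctggtccg
SMC2 (chr9:104094294-104094323, plus strand): ctcgcgccgaaaTTCAAAggaataaatagt
SMC4 (chr3:160399563-160399592, plus strand): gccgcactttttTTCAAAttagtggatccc
SMC3 (chr10:110567532-110567561, plus strand): cagaattctagaTTCAAAagaaatccacca
NCAPH (chr2:96335642-96335671, plus strand): accccaagaagcCCAATcagacggggtcct
SMC1A (chrX:53422656-53422685, minus strand): gcactgcggcgTTTCCCGCgcgggctacct
STAG2 (chrX:123961996-123962025, plus strand): tgttggggggtTTTGGCGCcacttttgttt

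TTTGAA was found in 7 of the 10 genes, against 18.2% of the 27305 genes with a promoter window. The match began at -151 relative to the start in SMC3, the farthest of the 7, and at 36 in NCAPG2, the only one that lay wholly after it. NCAPH, SMC1A and STAG2 had no TTTGAA in these windows. CCAAT was found in 4 of the 10 genes (39.7% of all genes), with 4 matches in NCAPD2. An E2F form was found in 3 of the 10, SMC1A, STAG2 and NCAPD3 (3.99% of all genes), and TTCGAA, a variant of the homology region, in 0 of the 10 (1.82% of all genes). No match shared bases with another. A match describes the letters only, and the genes with more windows had more chances of one.

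All 10 subunits were higher in shNEDD9, but by very different amounts. SMC4, NCAPG, NCAPH, NCAPG2 and NCAPD2 rose 2.41-fold to 3.15-fold, SMC2 and SMC3 rose 1.92-fold and 1.75-fold, NCAPD3 and SMC1A rose 1.41-fold and 1.35-fold, and STAG2 was 1.10-fold higher. The median log2 fold change of the 10 was 1.11, against 0.00 over all 13958 genes tested. The test was edgeR's quasi-likelihood test with Benjamini-Hochberg adjustment over all genes, and 0.05 was the threshold for a call. By that rule 10 of 10 were called higher, where 35.5% of all tested genes were and 71.4% were called in either direction. At least 1.5-fold higher were 7 of 10, where 17.2% of all were, and at least 2-fold higher were 5 of 10, where 7.67% were. The groups did not overlap in 10 of 10, where 35.7% of all tested genes were higher without overlap and 71.8% were apart in either direction. The members were chosen with earlier results of these data known, so these counts describe them and are not a test of the set. In whole cultures, more cells of a kind and more RNA per cell cannot be told apart.

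NEDD9 itself was lower in each shNEDD9 library, at 136 to 138 CPM (read counts scaled for library size) against 339 to 365 in shNTC. Libraries held 3217276 to 9902002 counts, and the smallest count of any member in any library was 90. The 9 VCaP and prostate markers were all tested (3 higher, 6 lower). They summed to 13439 to 13711 CPM in shNTC and 15382 to 15999 in shNEDD9, mostly KLK2 (mean 9403 and 11242 CPM). ERG, of the fusion gene that marks VCaP, was present in each library but lower in shNEDD9 (191 ± 2.78 against 258 ± 8.95 CPM, SD, n = 3 each). SLC45A3 fell most of the 6, by 1.97 on the log2 scale, and KLK3 rose most of the 3, by 1.75. CDH5, CD3E and CD68, markers of endothelial cells and leukocytes, had 0 counts in every library, where a count of 3 equals 0.303 to 0.932 CPM. The endothelial marker VWF held 7 to 15 counts in each library and the leukocyte marker CD14 held 15 to 51. Neither was called, and CD14 made up most of the leukocyte sum. The 5 endothelial markers summed to 1.34 to 3.14 CPM in shNTC and 1.61 to 2.35 in shNEDD9, and the 5 leukocyte markers to 3.09 to 5.34 and 4.36 to 5.14. The 6 stromal markers summed to 26.4 to 33.6 CPM in shNTC and 47.5 to 54.6 in shNEDD9, mostly LUM. Only 2 of the 6 passed the count filter, and they moved in opposite directions. LUM had a log2 fold change of 1.24 (edgeR adjusted p = 3.18e-42) and COL1A1 one of -0.55 (edgeR adjusted p = 0.0106). COL1A1 was not called with DESeq2 (adjusted p = 0.0587). The part of these markers in the results was not tested. Between libraries of a group the ratio of chi-square to degrees of freedom was 1.14 to 1.21, so they were close to, but not within, sampling noise. The p-values therefore rest on a small spread, which may be partly technical.

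**Figure D1:**
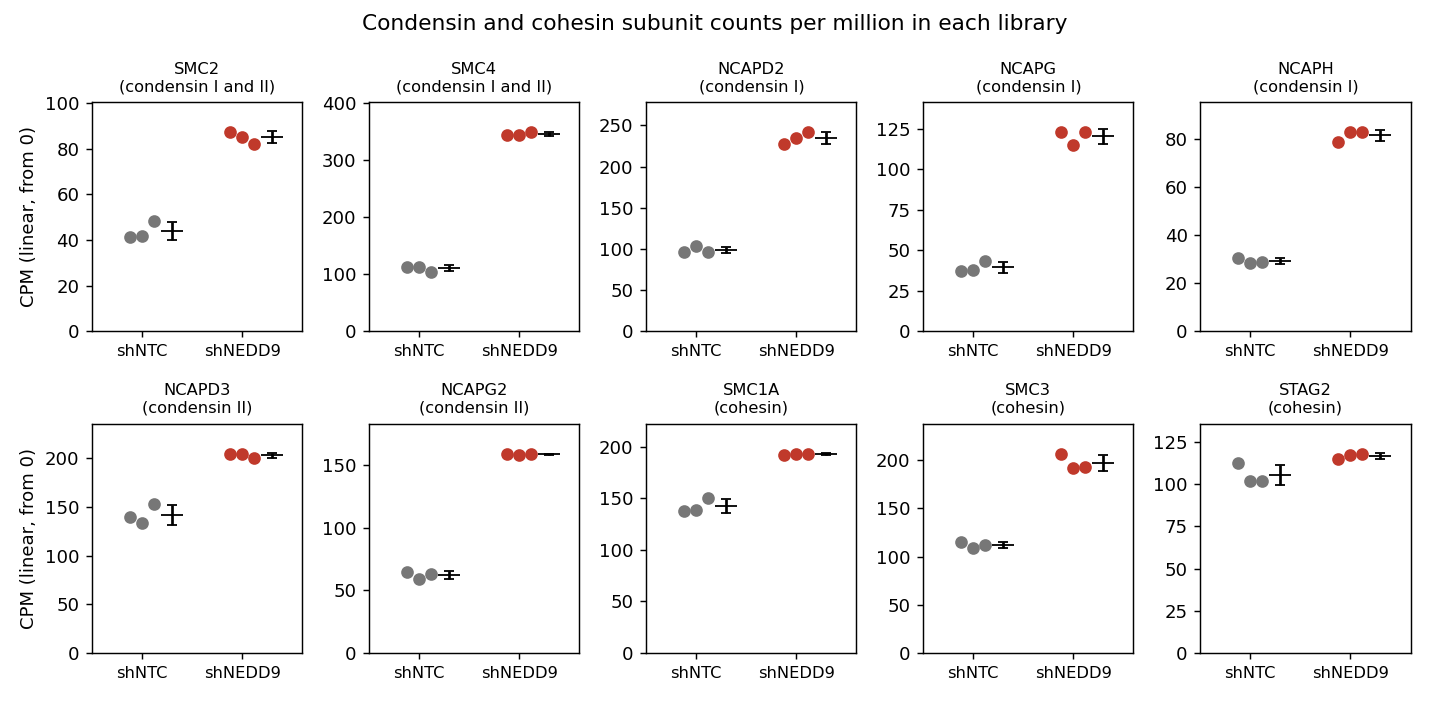
CPM (vertical axis, linear from 0, a scale for each gene) of the 10 subunits in each library of shNTC (grey) and shNEDD9 (red), with the mean and SD of 3 libraries beside the points. SMC4 stands at 104 to 113 in shNTC and 343 to 350 in shNEDD9, while the groups of STAG2 lie next to each other, at 102 to 113 and 115 to 118.

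SMC4 (ENSG00000113810, GRCh38 chromosome 3, 160399274 to 160434962) showed the largest fold of the 10. It was measured at 113, 113 and 104 CPM in shNTC replicates 1 to 3 and at 343, 345 and 350 in shNEDD9 replicates 1 to 3. Every shNEDD9 library was far above every shNTC library. Its log2 fold change was 1.65 (SE 0.04, edgeR adjusted p below 1e-300). Its core partner SMC2 (ENSG00000136824, chromosome 9, 104094260 to 104141417) was measured at 41.4, 41.8 and 48.5 CPM in shNTC and at 87.4, 85.3 and 82.2 in shNEDD9. The groups were apart, with shNTC replicate 3 the highest of its group. The log2 fold change of SMC2 was 0.94 (SE 0.06, edgeR adjusted p = 3.86e-48), against 1.65 for SMC4.

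The kleisin NCAPH (ENSG00000121152, chromosome 2, 96335787 to 96373845) was the least abundant member by counts, at 30.7, 28.3 and 28.95 CPM in shNTC. In shNEDD9 it was at 78.9, 83.0 and 82.9 CPM, with no overlap between groups. Its log2 fold change was 1.47 (SE 0.07, edgeR adjusted p = 4.37e-94). NCAPG (ENSG00000109805, chromosome 4, 17810902 to 17844862), a HEAT-repeat subunit that binds DNA together with the kleisin, was at 37.4, 37.7 and 43.0 CPM in shNTC and at 123, 115 and 123 in shNEDD9. The lowest shNEDD9 library was still well above the highest of shNTC. NCAPG had a log2 fold change of 1.603 (SE 0.06, edgeR adjusted p = 1.78e-152). NCAPD2 (ENSG00000010292, chromosome 12, 6493356 to 6531955), the other HEAT-repeat subunit of condensin I, was at 95.7, 103 and 96.6 CPM in shNTC and at 227, 235 and 242 in shNEDD9. All 3 libraries of each group lay close together. NCAPD2 had a log2 fold change of 1.27 (SE 0.04, edgeR adjusted p = 4.34e-195). The median of the 3 condensin I subunits was 1.47.

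The members include only 2 subunits specific to condensin II, without its kleisin. They had a median log2 fold change of 0.91, the midpoint of the 2 values, and lay farther from each other. NCAPG2 (ENSG00000146918, chromosome 7, 158631311 to 158704829), the counterpart of NCAPG, was at 65.0, 59.1 and 63.2 CPM in shNTC and at 159, 158 and 159 in shNEDD9. The shNEDD9 libraries were nearly equal and far above shNTC. NCAPG2 had a log2 fold change of 1.33 (SE 0.05, edgeR adjusted p = 2.23e-148). NCAPD3 (ENSG00000151503, chromosome 11, 134150119 to 134225454), the counterpart of NCAPD2, was at 140.0, 133 and 153 CPM in shNTC and at 204, 205 and 200.1 in shNEDD9. Its groups were apart, although shNTC varied more than shNEDD9. NCAPD3 had a log2 fold change of 0.50 (SE 0.04, edgeR adjusted p = 4.90e-35). The condensin II kleisin gene NCAPH2, from the list of related subunits, was 1.54-fold higher, at 43.3 ± 3.26 against 28.5 ± 3.30 CPM (SD, n = 3 each, edgeR adjusted p = 2.30e-13).

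The 3 cohesin subunits among the members, which do not include the cohesin kleisin, had a median log2 fold change of 0.43. None of the 3 was at least 2-fold higher. SMC3 (ENSG00000108055, chromosome 10, 110567691 to 110604636), the core subunit whose acetylation locks cohesin on sister chromatids, was at 115, 108 and 112 CPM in shNTC and at 207, 192 and 193 in shNEDD9. The groups did not overlap, and shNEDD9 replicate 1 was the highest. Its log2 fold change was 0.80 (SE 0.04, edgeR adjusted p = 1.32e-78). SMC1A (ENSG00000072501, chromosome X, 53374149 to 53422728), its partner, was at 138, 139 and 150.2 CPM in shNTC and at 192, 193 and 193 in shNEDD9. The 3 shNEDD9 libraries were nearly equal. Its log2 fold change was 0.43 (SE 0.04, edgeR adjusted p = 5.18e-26).

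STAG2 (ENSG00000101972, chromosome X, 123960212 to 124422664) had the smallest difference of the 10. It was measured at 113, 102 and 102 CPM in shNTC and at 115, 117 and 118 in shNEDD9, so that shNTC replicate 1 nearly reached the shNEDD9 libraries. The log2 fold change was 0.14 (SE 0.05, edgeR adjusted p = 0.00684). It was not called without shNTC replicate 3 (log2 fold change 0.10, edgeR adjusted p = 0.112) or with DESeq2 (0.14, adjusted p = 0.0509), and its adjusted p over 15 alternatives was at most 0.112. STAG1, the alternative subunit, was 1.64-fold higher, at 63.0 ± 2.76 against 37.9 ± 1.56 CPM (SD, n = 3 each, edgeR adjusted p = 3.68e-23). The log2 ratio of STAG1 to STAG2 CPM within a library was -1.52, -1.50 and -1.41 in shNTC and -0.80, -0.90 and -0.97 in shNEDD9. STAG1 was below STAG2 in each library by counts, and nearer to it in the 3 shNEDD9 libraries. This pair was chosen after its values were seen and was not tested.

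**Figure D2:**
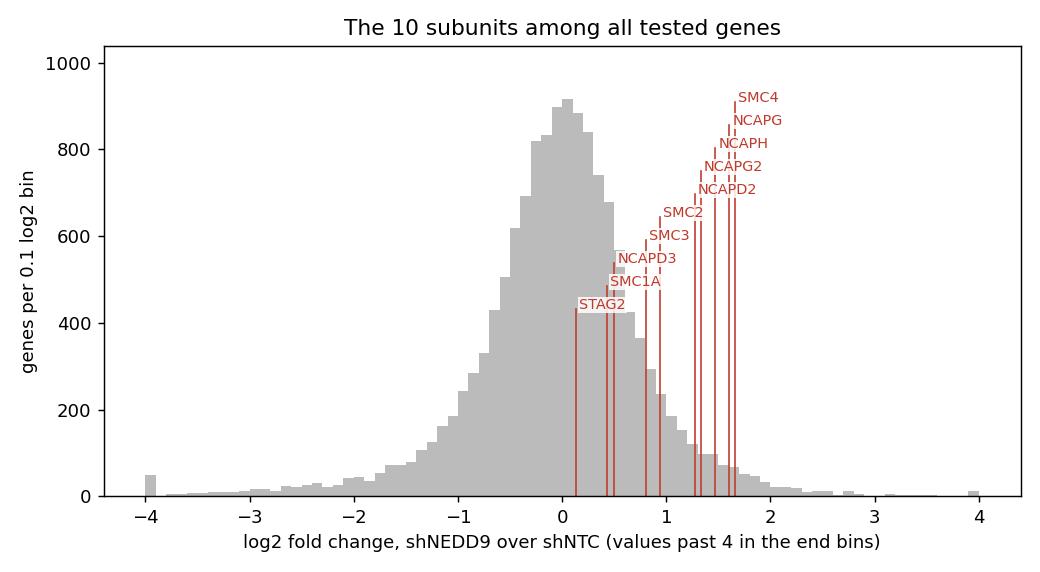
Number of tested genes (vertical axis) by log2 fold change of shNEDD9 over shNTC (horizontal axis, bins of 0.1, values past 4 in the end bins), with red lines at the 10 subunits whose heights carry no value. STAG2 at 0.14 lies near the middle of all genes and SMC4 at 1.65 lies in the right tail.

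Among all tested genes ranked by log2 fold change, SMC4 stood at percentile 97.8, NCAPG at 97.5, NCAPH at 96.8, NCAPG2 at 95.8 and NCAPD2 at 95.4. SMC2 stood at percentile 91.3, SMC3 at 88.6, NCAPD3 at 78.8, SMC1A at 75.8 and STAG2 at 58.9.

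Whether partner subunits changed unequally was asked with the log2 ratio of their CPM within each library, which does not depend on the scaling between libraries. Each of the 7 ratios computed was compared by a two-sided exact permutation test over the 6 libraries, whose smallest possible p is 0.1, so none could pass 0.05. The ratio of NCAPD2 to NCAPD3 was -0.55, -0.36 and -0.66 in shNTC and 0.15, 0.20 and 0.28 in shNEDD9. By counts, the condensin I subunit was thus below its condensin II counterpart in each shNTC library and above it in each shNEDD9 library, a difference of 0.73 (exact permutation p = 0.1, adjusted over the 7 ratios 0.14). Per kilobase of annotated exons NCAPD2 and NCAPD3 overlapped in shNTC (15.2 and 15.6), and stood at 36.2 and 22.3 in shNEDD9. The ratio of SMC4 to SMC2 was 1.45, 1.44 and 1.10 in shNTC and 1.97, 2.01 and 2.09 in shNEDD9. The groups did not overlap, with a difference of 0.69 (exact permutation p = 0.1, adjusted 0.14).

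The ratio of NCAPG to NCAPG2 was -0.80, -0.65 and -0.55 in shNTC and -0.37, -0.46 and -0.37 in shNEDD9. It differed by 0.27 without overlap (exact permutation p = 0.1, adjusted 0.14), against 0.73 for the NCAPD pair. The ratio of SMC1A to SMC3 was 0.26, 0.36 and 0.43 in shNTC and -0.11, 0.00 and 0.00 in shNEDD9. SMC1A was above SMC3 by counts in each shNTC library, and level with or below it in shNEDD9, a difference of -0.38 (exact permutation p = 0.1, adjusted 0.14). Per kilobase of annotated exons SMC1A was below SMC3 in both groups, at 13.6 against 26.1 in shNTC and 18.4 against 46.2 in shNEDD9. The ratio of SMC4 to NCAPH was 1.89, 2.004 and 1.85 in shNTC and 2.12, 2.05 and 2.08 in shNEDD9. These groups were also apart, by 0.17 (exact permutation p = 0.1, adjusted 0.14).

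The other 2 ratios overlapped between groups. That of NCAPH to NCAPG was -0.29, -0.42 and -0.57 in shNTC and -0.64, -0.47 and -0.57 in shNEDD9 (difference -0.13, exact permutation p = 0.3, adjusted 0.3). With every library thinned to the smallest total its difference was 0.036 (exact permutation p = 0.7). That of SMC2 to SMC3, the core subunits of condensin and cohesin, was -1.47, -1.38 and -1.20 in shNTC and -1.24, -1.17 and -1.23 in shNEDD9 (difference 0.14, exact permutation p = 0.3, adjusted 0.3). This difference was 0.07 without shNTC replicate 1 and 0.21 without shNTC replicate 3.

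**Figure D3:**
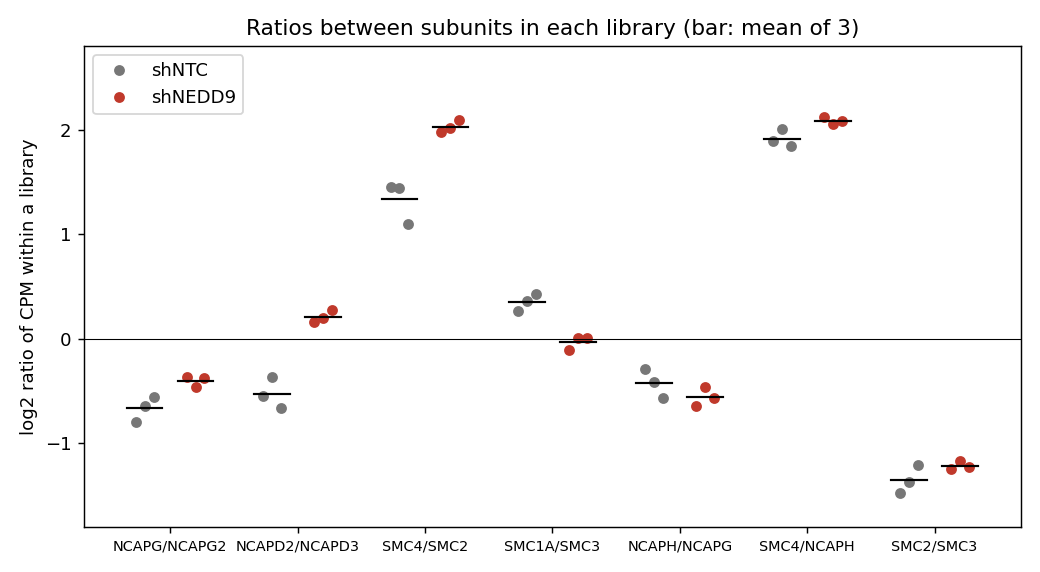
Log2 ratio of the CPM of paired subunits within each library (vertical axis) for 7 pairs (horizontal axis), with shNTC in grey, shNEDD9 in red and a bar at the mean of 3 libraries. The ratio of NCAPD2 to NCAPD3 lies at -0.66 to -0.36 in shNTC and at 0.15 to 0.28 in shNEDD9, while those of NCAPH to NCAPG overlap.

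Levels can be compared between genes only per length, so counts were also expressed per kilobase of annotated exons (RPKM, CPM divided by length). In shNTC the highest level was that of SMC3, at 26.1 ± 0.79 RPKM (SD, n = 3). NCAPD3 and NCAPD2 followed at 15.6 ± 1.12 and 15.2 ± 0.65 RPKM, and their libraries overlapped. SMC1A, SMC4 and STAG2 came next at 13.6 ± 0.65, 13.0 ± 0.64 and 12.9 ± 0.75 RPKM, each overlapping its neighbour in the order. NCAPH, NCAPG2 and NCAPG lay lower, at 8.94 ± 0.37, 8.93 ± 0.43 and 8.002 ± 0.65 RPKM, again overlapping their neighbours. SMC2 was lowest, at 6.79 ± 0.62 RPKM.

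In shNEDD9 the order of levels per length was different. SMC3 was still highest at 46.2 ± 1.94 RPKM, followed by SMC4 at 40.9 ± 0.41 and NCAPD2 at 36.2 ± 1.14 (SD, n = 3 each). NCAPH and NCAPG overlapped, at 24.9 ± 0.72 and 24.4 ± 0.97 RPKM. NCAPG2 was at 22.7 ± 0.08, NCAPD3 at 22.3 ± 0.28, SMC1A at 18.4 ± 0.08, STAG2 at 14.3 ± 0.20 and SMC2 at 13.1 ± 0.41 RPKM, without overlap between neighbours. By mean level NCAPD3 went from place 2 to 7, SMC1A from 4 to 8 and STAG2 from 6 to 9, while NCAPG went from 9 to 5, SMC4 from 5 to 2 and NCAPH from 7 to 4. Places of members that overlap their neighbour, such as SMC1A, SMC4 and STAG2 in shNTC, are not resolved. The order depends on the length used: with the longest annotated transcript in place of all exons, SMC4 was above SMC3 in shNEDD9, at 63.2 against 48.0 RPKM, because a large share of the annotated exon length of SMC4 lies outside its longest transcript (8.46 against 5.47 kb). By that length NCAPD3 was in place 4 of shNEDD9 instead of 7, after place 2 in shNTC. SMC1A then went from place 6 to 8 and STAG2 from 5 to 9. NCAPG went from 9 to 7, SMC4 from 3 to 1 and NCAPH from 8 to 6 by the same length.

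**Figure D4:**
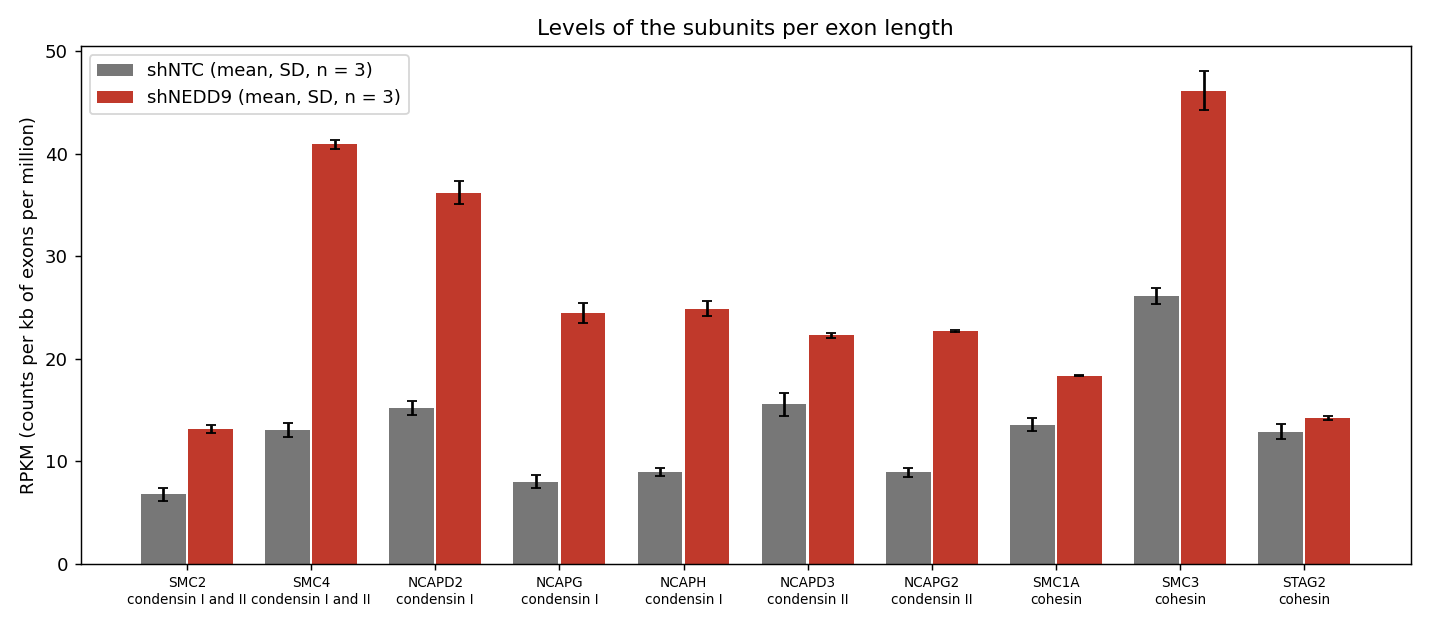
RPKM (vertical axis, linear from 0) of the 10 subunits by complex, as mean and SD of 3 libraries in shNTC (grey) and shNEDD9 (red). SMC3 is the highest in both groups, at 26.1 and 46.2, and SMC2 the lowest, at 6.79 and 13.1.

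Genes that control cohesin did not move as one. Of 7 factors that load, release or stop cohesin, 3 rose and 2 fell (35.5% and 35.9% of all tested genes), and with DESeq2 1 and 1. Their median log2 fold change was 0.09. The loader subunit genes NIPBL and MAU2 stood at 145 ± 4.45 against 143 ± 3.48 CPM and at 65.3 ± 3.33 against 61.9 ± 1.93 CPM (SD, n = 3 each), and neither was called (edgeR adjusted p = 0.742 and 0.212). CTCF, which stops loop extrusion, rose 1.23-fold (edgeR adjusted p = 1.11e-08), and PDS5A, a regulatory subunit, fell by 0.18 on the log2 scale (edgeR adjusted p = 4.12e-07). The release factor gene WAPL was 1.09-fold higher, but was not called without shNEDD9 replicate 2 (edgeR adjusted p = 0.0936). Nor was WAPL called with DESeq2 (adjusted p = 0.0725) or after thinning to the smallest total (edgeR adjusted p = 0.0566). PDS5B was 1.10-fold higher and was not called without shNTC replicate 1, shNTC replicate 2 or shNEDD9 replicate 3 (edgeR adjusted p = 0.0627, 0.140 and 0.214). HDAC8, the SMC3 deacetylase gene, had a log2 fold change of -0.35 and was not called without shNTC replicate 1, shNTC replicate 3 or shNEDD9 replicate 1 (edgeR adjusted p = 0.0506, 0.176 and 0.158).

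Genes that establish or protect cohesion were mostly higher. Of 10 such genes, 8 rose and 0 fell (35.5% and 35.9% of all tested genes), and 6 were at least 2-fold higher (7.67% of all). The median was 1.11 on the log2 scale. SGO1, whose protein shields centromeric cohesin, rose 3.30-fold (22.2 ± 0.18 against 6.59 ± 0.83 CPM, SD, n = 3 each). The kinase gene HASPIN rose 2.90-fold, WDHD1, a replication fork factor, 2.84-fold, and CDCA5, which encodes the cohesion factor sororin, 2.70-fold (327 ± 8.61 against 122 ± 3.70 CPM). SGO2, the paralog of SGO1, rose 2.23-fold, CHTF18, of an alternative clamp loader, 2.09-fold and the helicase gene DDX11 1.53-fold. The acetyltransferase gene ESCO1 was 1.14-fold higher, but was not called without shNTC replicate 2, shNTC replicate 3 or shNEDD9 replicate 2 (edgeR adjusted p = 0.143, 0.124 and 0.575). The phosphatase subunit genes PPP2R5A and PPP2R5C were not called (log2 fold changes 0.01 and 0.08).

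Of 7 genes of the pathway that cleaves cohesin at anaphase, 5 rose and 0 fell, where 35.5% and 35.9% of all tested genes did. Their median was 0.61 on the log2 scale. PTTG1, which encodes securin, the inhibitor of separase, rose 4.90-fold, from 11.1 ± 1.001 to 53.9 ± 2.60 CPM (SD, n = 3 each). ESPL1, which encodes separase itself, rose 3.43-fold, from 55.9 ± 2.68 to 194 ± 5.89 CPM. CDC20, the mitotic activator of the anaphase-promoting complex, rose 4.007-fold, whereas FZR1, which activates that complex in G1, stood at 57.5 ± 3.88 against 53.6 ± 3.50 CPM and was not called (edgeR adjusted p = 0.344). Among core subunits of that complex ANAPC1 and CDC27 rose 1.52-fold and 1.48-fold, and ANAPC5 stood at 214 ± 7.55 against 209.7 ± 3.95 CPM, which was not called (edgeR adjusted p = 0.361).

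**Figure D5:**
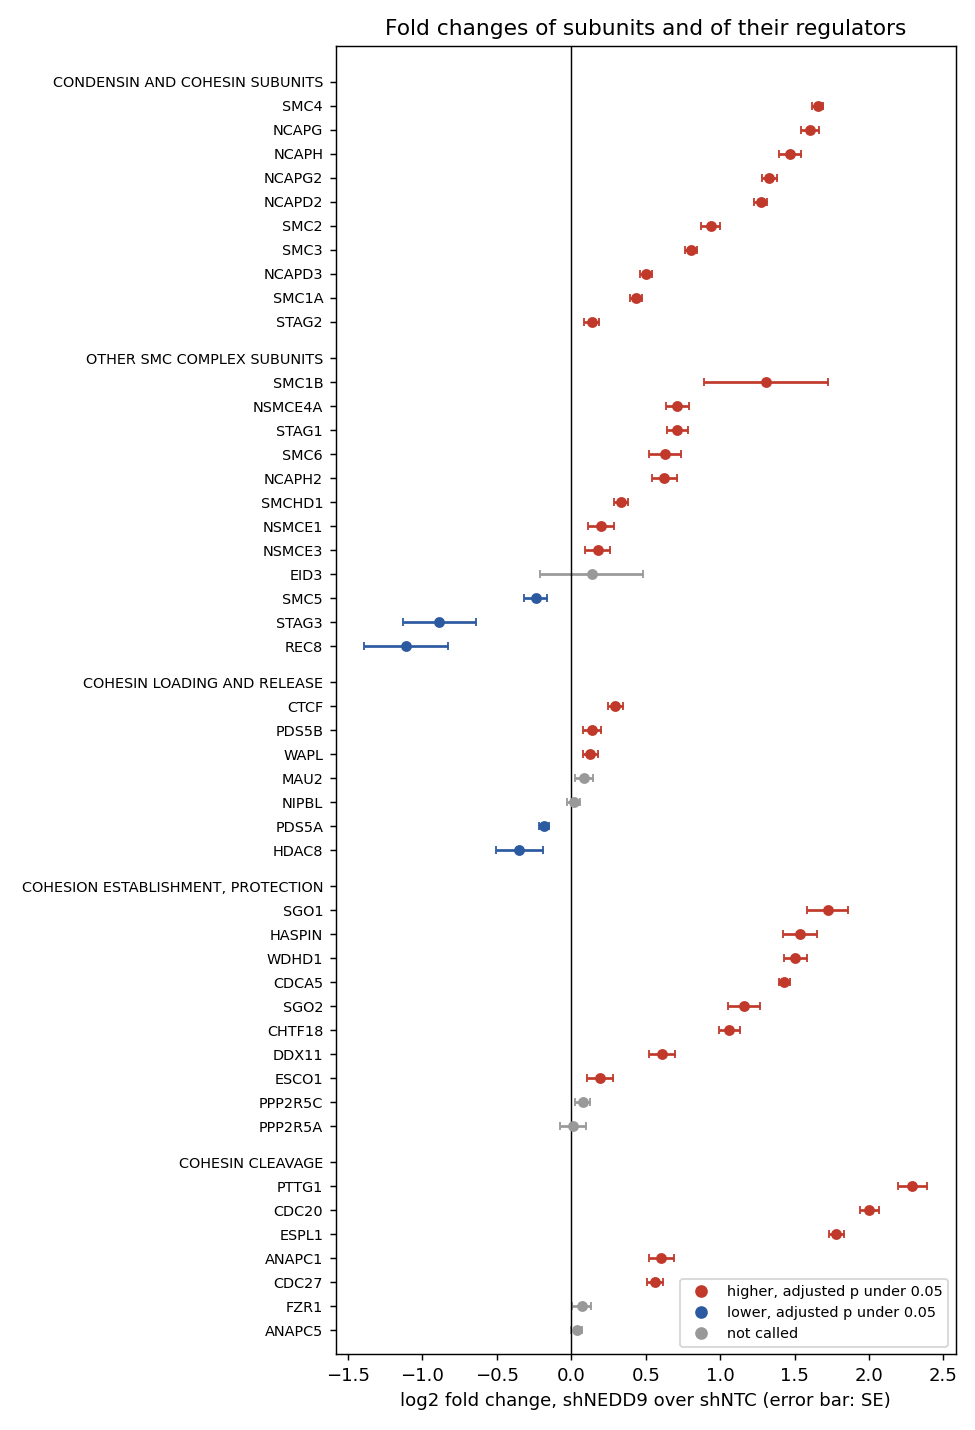
Log2 fold change of shNEDD9 over shNTC with its SE (horizontal axis) for the 10 subunits and the tested genes of 4 related lists (vertical axis), red for genes called higher, blue for genes called lower and grey for genes not called. The 10 subunits run from 0.14 to 1.65, the loading and release factors from -0.35 to 0.30.

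Of 12 tested genes for other subunits of SMC complexes, 8 rose and 3 fell (35.5% and 35.9% of all tested genes), and with DESeq2 6 and 2. Their median log2 fold change was 0.27, and 1 of the 13 listed was not tested. The germline cohesin genes REC8 and STAG3 fell by 1.11 and 0.89 on the log2 scale from low levels (4.14 ± 0.68 and 5.005 ± 1.12 CPM in shNTC), while SMC1B was 2.47-fold higher on 14 counts over the shNTC libraries. REC8 was not called after thinning to the smallest total (edgeR adjusted p = 0.0988). SMC6 and NSMCE4A, of the SMC5/6 repair complex, and SMCHD1, a separate SMC protein of the inactive X, rose 1.55-fold, 1.64-fold and 1.26-fold. SMC5, the partner of SMC6, had a log2 fold change of -0.24 and was not called without shNTC replicate 1 (edgeR adjusted p = 0.105). Nor was SMC5 called with DESeq2 (adjusted p = 0.0567) or after thinning (log2 fold change -0.096, edgeR adjusted p = 0.4475). NSMCE1 (log2 fold change 0.20) was not called without shNTC replicate 1, shNTC replicate 3 or shNEDD9 replicate 1 (edgeR adjusted p = 0.0874, 0.216 and 0.0587). NSMCE3 (log2 fold change 0.18) was not called without shNTC replicate 2, shNTC replicate 3, shNEDD9 replicate 1 or shNEDD9 replicate 2 (edgeR adjusted p = 0.0700, 0.208, 0.174 and 0.0825).

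Of 12 mitotic chromosome partners and kinases, 11 rose and 1 fell, against 35.5% and 35.9% of all tested genes. The median of the 12 was 1.67 on the log2 scale. BIRC5, the survivin gene, rose 3.75-fold, PLK1 3.54-fold, and CDK1, the kinase that activates condensin I in mitosis, 3.44-fold. The 1 that fell was TOP2B, the topoisomerase II gene expressed also in non-dividing cells (390 ± 4.34 against 481 ± 1.44 CPM), while TOP2A, its mitotic paralog, rose 3.28-fold. TOP2A was named after its values were seen. Markers of cycling cells moved with the subunits. All 15 S phase markers tested rose, where 35.5% of all tested genes did, with UHRF1 2.96-fold, GINS2 2.71-fold and TYMS 2.69-fold higher, and their median log2 fold change was 1.22. All 15 markers of G2 and M phase tested rose against the same 35.5%, led by the spindle protein gene HMMR (6.35-fold), the kinetochore gene NUF2 (4.77-fold) and the cyclin gene CCNB2 (4.39-fold), with a median of 1.601. The S phase list summed to 1209.8 to 1247 CPM in shNTC and 2578 to 2603 in shNEDD9, and the G2 and M list to 600.3 to 634 and 1946 to 1963. These lists were chosen with earlier results of these data known, so their counts describe the genes and are not a test. The part of cycling cells in the higher subunit levels was not tested.

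By profile over the 6 libraries, each centred on its shNTC mean, the genes nearest to NCAPH among 8164 candidates of at least 20 CPM were NDC1 and EFNB2 (Euclidean distance 0.0941 and 0.11 on the log2 scale). Nearest to NCAPG2 were UHRF1BP1 and ATF4 (0.0345 and 0.0365), and nearest to SMC3 were CPSF3 and GTF2F2 (0.0288 and 0.061). With 6 libraries in 2 groups this likeness rests mainly on a similar fold change.

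The members lie on 9 chromosomes, and the median of the neighbouring genes was below 0 for 4 of the 10. The median log2 fold change of the nearest tested genes, up to 10 on each side, was -0.30 around SMC1A, -0.40 around SMC2, -0.25 around NCAPD2 and -0.26 around NCAPG2. It was 0.32 around SMC3, 0.23 around STAG2, 0.20 around NCAPH, 0.11 around NCAPD3, 0.08 around SMC4 and 0.05 around NCAPG. Of 20 neighbours of SMC2, over 9.03 Mb, 3 rose and 15 fell, where 35.5% and 35.9% of all tested genes did. Of 20 neighbours of SMC3, over 9.14 Mb, 12 rose and 3 fell. These were the most falls and the most rises around any of the 10. Around SMC4 7 rose and 3 fell, and around NCAPD2 7 rose and 9 fell, of 20 neighbours each.

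Reads shared with genes, named here for their position, on the opposite strand could touch some values, since the strand setting of the counting is not given in the sources used here. Exons of SMC4 overlap those of TRIM59 and IFT80 (1561 and 607 bases), exons of NCAPG those of LCORL (1631 bases), exons of NCAPD2 those of MRPL51 (486 bases), and exons of NCAPD3 those of JAM3 (465 bases) and, over a shorter stretch, VPS26B. TRIM59, with 622 counts over the 6 libraries against 10096 of SMC4, rose by 1.21 on the log2 scale, and LCORL, with 702 counts against 3527 of NCAPG, fell by 0.49. MRPL51, with 4367 counts against 7261 of NCAPD2, rose by 0.64. VPS26B had the most counts of these genes, 5568 against 7253 of NCAPD3, and fell by 0.23, while JAM3 held 682. SMC1A and STAG2 share 39 and 241 exon bases with RIBC1 and TENM1, which held 22 and 13 counts. The listed pseudogenes of SMC4, NCAPD2 and NCAPG held 0, 1 and 0 counts.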

How the data were processed

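The 6 VCaP libraries were, per the labels' protocols, made from total RNA with a kit that marks the strand. The authors deposited whole-number counts of reads per gene, with no normalisation. Tools in the submitters' processing notes are STAR 2.5.3a, Subread 1.6.2 with featureCounts, cutadapt 1.9 and FastQC 0.11.5, and the builds are hg19 and GRCh38 without roles; the annotation release is not given in the sources used here. All 58735 identifiers occur in GENCODE 29 (GRCh38), which gave gene positions and exon lengths. 1 blank row was left out.

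The counts were tested with edgeR 4.0.16 (R 4.3.3, TMM factors 0.99 to 1.01, robust glmQLFit and glmQLFTest, no covariate) after filterByExpr at a minimum count of 10, which kept 13958 genes, with p-values adjusted over all of them. SE is the absolute log2 fold change without a prior count over the square root of F. CPM used TMM-scaled library sizes, and RPKM divided CPM by the union of annotated exons. Ratios of members were compared by exact permutation over the 6 libraries, adjusted over 7. The procedure was tested on simulated data. Alternatives tried were upper-quartile or RLE factors, plain library totals, no count filter, a mean of at least 1 CPM, DESeq2 1.42.0, limma-voom (limma 3.58.1), the replicate number as a block, thinning and leaving out each library; for levels, the longest transcript.

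The members and lists were chosen with earlier results of these data known. Genes named beside the members came from the lists by size of change (up to 3 in each direction with a mean of at least 1 CPM), with every gene of the 4 cohesin and SMC lists allowed. Limits of detection cover counting error only.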

Additional observations from a re-analysis of the deposited data

How the results depend on the processing

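In all 15 alternatives the 10 subunits kept a positive log2 fold change, and 9 of them were called in each. STAG2 was not called with DESeq2 (log2 fold change 0.14, adjusted p = 0.0509), and over the libraries left out in turn its log2 fold change ran from 0.10 to 0.20. The log2 ratio of NCAPH to NCAPG changed sign when every library was thinned to the smallest total (0.036, against -0.13), and the cause was not tested. Thinning left 5 higher and 1 lower of the other SMC complex subunits (8 and 3 with all counts), and 1 higher and 1 lower of the loading and release factors (3 and 2), with fewer counts in the test. In the latter list DESeq2 called 1 higher and 1 lower, the fit without a count filter called 1 lower, and leaving out a library gave 1 to 2 lower. WAPL, PDS5B, HDAC8, ESCO1, SMC5, NSMCE1 and NSMCE3 were called neither with DESeq2 nor after thinning.

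With the longest transcript as length, RPKM in shNTC was 14.3 for SMC1A, 27.2 for SMC3, 20.2 for SMC4, 17.8 for NCAPD2, 25.6 for NCAPD3, 11.9 for NCAPG2, 9.92 for NCAPH and 17.4 for STAG2. In shNEDD9 it was 19.4 for SMC1A, 14.2 for SMC2, 63.2 for SMC4, 42.3 for NCAPD2, 36.7 for NCAPD3, 25.8 for NCAPG, 30.2 for NCAPG2, 27.6 for NCAPH and 19.3 for STAG2. These shifts come from the shorter length alone.

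Same-numbered libraries did not deviate together (correlation over 8174 genes -0.05, -0.01 and 0.01 for numbers 1 to 3), so the replicate number is not taken as a pairing. With the replicate block 4881 genes were higher and 4953 lower, against 4950 and 5014, and 10 of 10 subunits were higher; of the genes named, ESCO1 alone lost its call (adjusted p = 0.103 with edgeR). The median log2 fold change of all genes was 0.00 to 0.02 under the other scalings. The smallest library limits low genes such as SMC1B, and the 3 libraries in each group limit every ratio to an exact p of at least 0.1.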
